A study of Rattus norvegicus with 45 samples.

Results

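Striatum of rats given haloperidol was compared with striatum of rats given vehicle, across all genes of the array. The means compared are those of the 10 striatum arrays of these 2 groups, 5 rats each, out of 45 arrays in the series. All rats were male Sprague-Dawley rats of 9 to 11 weeks at the start, and each carried a subcutaneous osmotic minipump for 21 days. The pumps of the haloperidol group delivered 0.25 mg/kg/d of the drug, those of the control group delivered its solvent, and a further 5 rats were given 5 mg/kg/d of risperidone. Frontal cortex and hippocampus of the same 15 rats were also measured. A single fit covered all 45 arrays, so these arrays and the risperidone arrays enter the filter and the spread behind every p. Fitted on the 10 arrays alone, 20 probe sets were called, of which 11 were among the calls reported below. The levels of the other arrays are given only beside those of the 2 groups. Whole striatum was taken, so fewer cells of a type and less RNA per cell cannot be told apart. Vehicle and haloperidol rats carry animal numbers in separate runs, and neither the order nor the hour of collection is given in the sources used here. A tissue label names mouse, whereas the organism, strain and array are those of rat.

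The striatum is the main input station of the basal ganglia, and most of its cells are GABA-releasing projection neurons. Neurons of the indirect pathway carry the dopamine receptor Drd2 and the adenosine receptor Adora2a and release enkephalin, while those of the direct pathway carry Drd1 and release substance P and dynorphin. Haloperidol blocks receptors of the D2 type, which lower cAMP through an inhibitory G protein. Synaptic input and cAMP both act on a set of activity-regulated genes, among them the Egr and Nr4a transcription factors and Homer1, whose transcripts rise and decay within a short time.

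Each value is the log2 of an RMA intensity (Robust Multi-array Average, background-corrected and normalized between arrays by the authors), so a difference of 1 is a change of 2-fold. The median intensity of a striatum array ran from 87.9 to 92.1, the number of arrays limits the precision, and no array duplicated another (highest correlation between 2 arrays 0.9939). Striatal markers bore out the region label. Drd1 ran from 10.48 to 11.85 over the 15 striatum arrays and from 5.99 to 7.85 in frontal cortex, and Drd2 from 9.53 to 10.99 against 5.04 to 6.91. Some striatum arrays held transcripts of neighbouring tissue. The vesicular glutamate transporter Slc17a7, which marks pyramidal neurons, ran from 7.12 to 9.91 in haloperidol rats and from 6.23 to 7.68 in vehicle rats, and the choroid plexus marker Ttr ran from 7.17 to 14.44 and from 7.46 to 14.44. The mean of 15 pyramidal neuron markers was 7.11, 6.87, 7.52, 7.07 and 7.60 in haloperidol replicates 1 to 5 and 6.68, 7.02, 6.75, 7.08 and 6.88 in vehicle replicates 1 to 5. Haloperidol replicates 3 and 5 were thus above all other rats of the comparison. The mean of 15 oligodendrocyte markers ran from 10.09 to 10.51 after haloperidol and from 9.98 to 10.24 after vehicle, and that of 13 choroid plexus, ependymal and meningeal markers from 6.43 to 8.40 and from 6.29 to 8.59. The mean of 10 projection neuron markers was 11.46 to 11.75 and 11.61 to 11.81, lowest in haloperidol replicates 3 and 5.

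**Figure D1:**
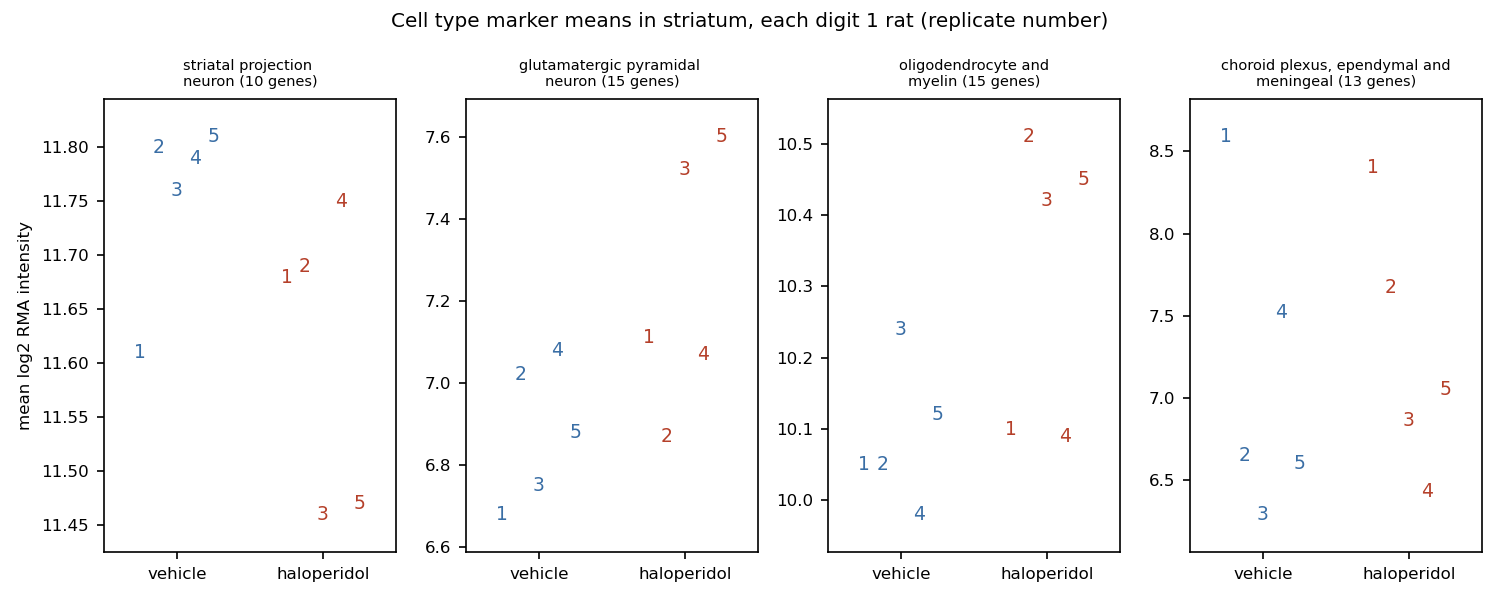
Mean log2 RMA intensity of 4 marker lists in each striatum array, where a digit is the replicate number of a rat (blue vehicle, red haloperidol). Haloperidol replicates 3 and 5 were highest in pyramidal neuron markers (7.52 and 7.60) and lowest in projection neuron markers (11.46 and 11.47).

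On the deposited scale, more called probe sets were lower than higher after haloperidol. Of 18625 probe sets tested, 63 (0.338%) were called at an adjusted p under 0.05 (limma, Benjamini-Hochberg) and at least a 1.2-fold change, of which 55 fell and 8 rose. They carried 31 named genes that fell (0.302% of 10256 genes) and 6 that rose (0.0585%), while 26 probe sets have no single gene name. The changes were small, with 42 of the 63 under 1.5-fold. All 5 haloperidol rats lay below all 5 vehicle rats for 43 called probe sets and above them for 6, and the groups overlapped for 14. Over all tested probe sets the haloperidol rats were all below for 492 (2.64%) and all above for 145 (0.779%). At an unadjusted p under 0.05 there were 2867 probe sets, of which 1891 were lower and 976 higher.

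The split between falls and rises depended on the scaling. With each array centred on its own median, 61 were called, 31 lower and 30 higher, and with quantile normalization within each region 48 were called, 32 lower and 16 higher. The median level of the tested probe sets was 7.79 after haloperidol and 7.83 after vehicle. All 63 called probe sets kept their sign under every setting tried that gave them a value. The count rested on single rats: it was 12 without haloperidol replicate 3, 13 without haloperidol replicate 5 and 13 without vehicle replicate 2. It was 26, 30 and 32 without vehicle replicates 1, 3 and 5 and 168 without risperidone replicate 3, which enters the estimate of the spread. Only 9 calls were lost under the removal of none of the 10 rats, and 43 were lost under the removal of at least 5 of them, each taken singly. Fitted on the 15 striatum arrays alone, Homer1 was the single call, although all 63 kept an unadjusted p under 0.05. Without the 3 striatum arrays highest in pyramidal neuron markers (haloperidol replicates 3 and 5 and risperidone replicate 3), 17 were called, 15 of them among the 63.

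**Figure D2:**
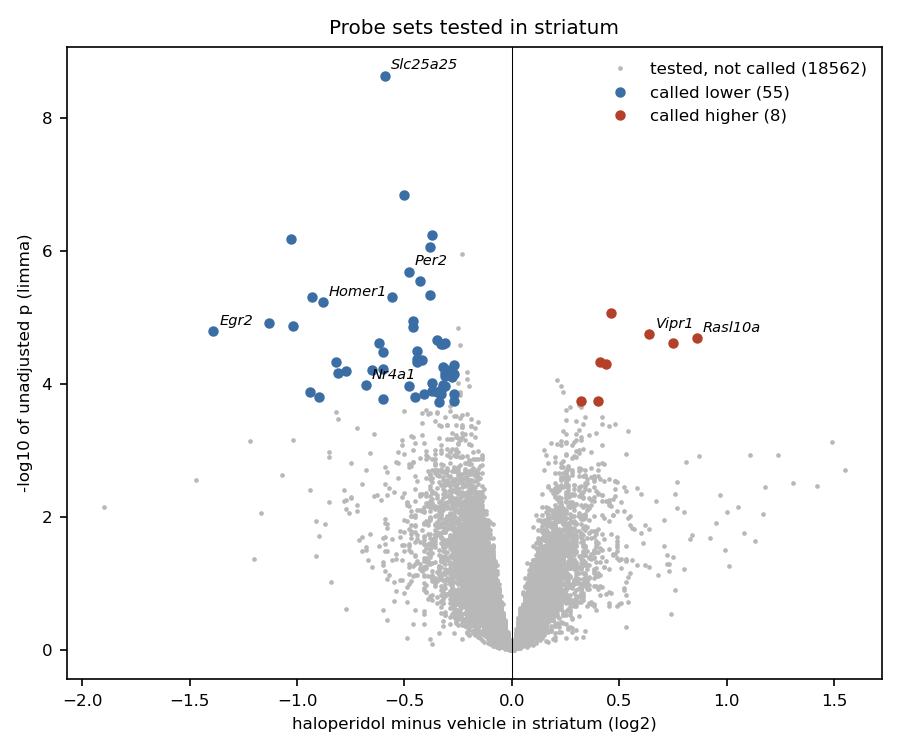
Change in striatum (haloperidol minus vehicle, log2) against -log10 of the unadjusted p from limma for the 18625 probe sets tested. The 55 called falls (blue) reached further from 0 and lower p than the 8 called rises (red), with Slc25a25 at the top.

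Activity-regulated genes held the falls with the smallest p and the largest size. Of 34 measured genes of the list, 5 fell and none rose, namely Slc25a25, Egr2, Homer1, Nr4a1 and Tiparp, and the list median was -0.15 against -0.02 over all genes. A gene of a list counted as called if any of its probe sets was called. For list medians and counts by sign or unadjusted p, each gene was read at its probe set with the highest mean over all arrays. A called gene can thus be absent from those counts, and the same holds for the lists below. At an unadjusted p under 0.05, 14 members were lower and 8 higher, so the list did not move as a whole. Over all genes, 995 (9.70%) were lower and 529 (5.16%) higher at that p.

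Slc25a25, a calcium-regulated carrier that moves ATP-Mg and phosphate across the inner mitochondrial membrane, had the smallest p of the comparison. Its level was 8.72, 8.81, 8.65, 8.87 and 8.56 in haloperidol replicates 1 to 5 and 9.34, 9.29, 9.37, 9.14 and 9.44 in vehicle replicates 1 to 5. Every haloperidol rat was below every vehicle rat. Slc25a25 fell by 0.59 on the log2 scale (SE 0.08, 1.51-fold, adjusted p = 4.28e-05 by limma, n = 5 per group), and the call stood without any of the 10 rats (adjusted p up to 0.00136). It also stood without the 3 arrays highest in pyramidal neuron markers (-0.51, adjusted p = 0.00558), but not on the 15 striatum arrays alone (adjusted p = 0.119).

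Egr2, a zinc finger transcription factor, had the largest fall of any called probe set. It stood at 7.12, 8.74, 7.17, 6.60 and 6.42 after haloperidol and at 8.30, 8.59, 8.70, 8.38 and 9.03 after vehicle. Haloperidol replicate 2 lay within the vehicle range and the other haloperidol rats lay below it. The fall was by 1.39 (SE 0.28, adjusted p = 0.0157 by limma), and the call failed in 5 of 10 removals of a rat (largest adjusted p 0.0759, on leaving out haloperidol replicate 3). It also failed without the 3 arrays highest in pyramidal neuron markers (-1.18, adjusted p = 0.155).

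Homer1, a scaffold that ties metabotropic glutamate receptors to the postsynaptic density, read 6.87, 7.46, 6.99, 6.89 and 6.89 after haloperidol and 7.89, 7.98, 7.94, 7.70 and 8.02 after vehicle at its called probe set. The groups did not overlap. It fell by 0.88 (SE 0.17, 1.84-fold, adjusted p = 0.00900 by limma), kept its call without each rat (adjusted p up to 0.0486) and was called on the 15 striatum arrays alone (adjusted p = 0.00861). The call failed without the 3 arrays highest in pyramidal neuron markers (-0.85, adjusted p = 0.0925). It also failed with neighbouring tissue markers as covariates on the 15 striatum arrays (-0.83, adjusted p = 0.0524). The other Homer1 probe sets tested were lower by less, from -0.17 to -0.31, and none was called (adjusted p from 0.306 to 0.419). Which transcripts of the gene each probe set reads is not given in the tables used here.

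Nr4a1, an orphan nuclear receptor, read 8.39, 8.76, 8.38, 8.52 and 8.22 after haloperidol and 9.32, 8.92, 9.58, 8.72 and 9.14 after vehicle. Vehicle replicate 4 lay just under the highest haloperidol rat. Nr4a1 fell by 0.68 (SE 0.16, adjusted p = 0.0346 by limma), a call that failed in 8 removals (largest adjusted p 0.155, on leaving out haloperidol replicate 5). Tiparp, an ADP-ribosyltransferase, fell by 0.33 (SE 0.08, adjusted p = 0.0382), with 7.69 to 8.07 after haloperidol and 7.98 to 8.48 after vehicle, and its call failed in 6 removals (largest adjusted p 0.188, haloperidol replicate 3). Without the 3 arrays highest in pyramidal neuron markers, neither was called (Nr4a1 -0.58, adjusted p = 0.243, and Tiparp -0.26, adjusted p = 0.315).

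Members of the same families did not pass the test. Junb was at 7.52 to 7.79 after haloperidol and 7.91 to 8.21 after vehicle (-0.38, adjusted p = 0.0580), and Arc, a postsynaptic protein made on strong input, was at 7.51 to 7.87 and 7.91 to 8.63 (-0.42, adjusted p = 0.224), both without overlap. Egr1 (-0.33, adjusted p = 0.142), Nr4a3 (-0.38, adjusted p = 0.181), Egr4 (-0.27, adjusted p = 0.249) and Fos (-0.39, adjusted p = 0.505) had lower means with overlapping groups. Egr3 and Fosb were not tested, since their probe sets lay under the filter on low values. Other members had higher means, among them Nr4a2 (1.13, adjusted p = 0.252) and the neurotrophin Bdnf (0.84, adjusted p = 0.237). Bdnf stood at 4.42 in striatum and 8.74 in frontal cortex of vehicle rats, and with neighbouring tissue markers as covariates its difference was 0.11 (adjusted p = 0.913) and that of Nr4a2 was 0.17 (adjusted p = 0.923).

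**Figure D3:**
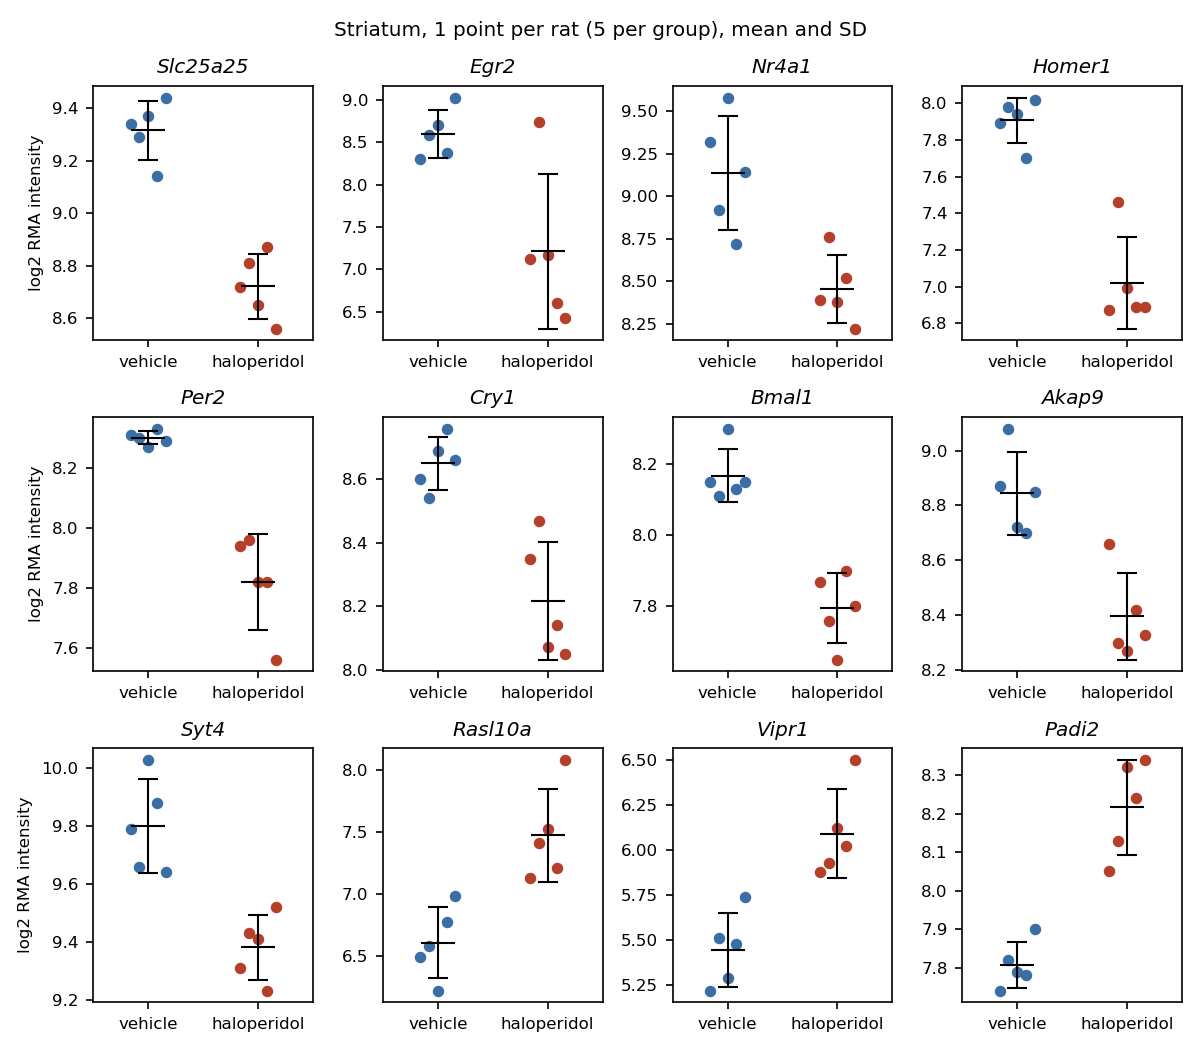
Log2 RMA intensity in striatum of each rat for 12 called genes, with the mean and SD of 5 rats per group (each panel has its own scale). The groups did not overlap for 10 of these genes, and overlapped for Egr2 (haloperidol replicate 2 at 8.74) and Nr4a1.

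Of the 37 named genes, 34 had a promoter in the RefSeq table (build GRCr8), and the 250 bases before each start were searched on both strands for the cAMP response element (CRE, TGACGTCA), its core (TGACG, or CGTCA read on the other strand, so that a full element holds 2 overlapping cores), the CArG box and the EGR site (GCGNGGGCG). Of the 5 called activity-regulated genes, the windows of Slc25a25, Egr2 and Nr4a1 are shown because they held a match, and were chosen after the search, while those of Homer1 and Tiparp held none. The sequences before the starts of Slc25a25 (chr3:36116582-36116831, minus strand), Egr2 (chr20:21054442-21054691, minus strand) and Nr4a1 (chr7:134259888-134260137, plus strand) follow, 5′ to 3′, with matches to these motifs in capitals.
Slc25a25: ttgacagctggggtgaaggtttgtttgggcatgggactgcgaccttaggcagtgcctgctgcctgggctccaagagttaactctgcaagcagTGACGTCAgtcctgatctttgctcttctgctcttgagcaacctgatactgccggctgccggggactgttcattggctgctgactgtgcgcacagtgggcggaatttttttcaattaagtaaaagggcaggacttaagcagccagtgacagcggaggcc
Egr2: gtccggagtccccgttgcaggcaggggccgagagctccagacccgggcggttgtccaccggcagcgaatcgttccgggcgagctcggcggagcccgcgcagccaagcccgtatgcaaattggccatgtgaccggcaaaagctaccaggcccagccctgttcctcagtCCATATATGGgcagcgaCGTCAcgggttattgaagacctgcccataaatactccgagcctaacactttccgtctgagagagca
Nr4a1: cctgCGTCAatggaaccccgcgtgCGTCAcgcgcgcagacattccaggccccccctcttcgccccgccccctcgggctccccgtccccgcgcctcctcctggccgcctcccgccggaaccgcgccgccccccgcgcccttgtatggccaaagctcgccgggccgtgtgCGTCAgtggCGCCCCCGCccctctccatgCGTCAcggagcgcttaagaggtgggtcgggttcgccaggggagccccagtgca

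The Slc25a25 window held a full CRE from 158 bases before the start. The Egr2 window held a CArG box from 83 and a CRE core from 66 bases before the start. The Nr4a1 window held 4 CRE cores, at 246, 226, 82 and 53 bases before the start, and an EGR site at 73. The Homer1, Tiparp, Per2 and Bmal1 windows held none of these letters, and Cry1 and Zfp189 had no entry. Over the 36 promoters of 28 genes that fell, 2 held the CRE (5.56%), 10 the core (27.8%), 1 the CArG box (2.78%) and 5 the EGR site (13.9%). Among 9687 promoters of genes tested, 2.91% held the CRE, 27.6% the core, 1.31% the CArG box and 9.21% the EGR site, and among all 33469 promoters the shares were 1.59%, 18.2%, 1.5% and 4.29%. A match is a description of the letters and shows no binding.

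Clock genes were the other list with several falls. Bmal1, which with Clock switches on the transcription of the loop, and Per2 and Cry1, which repress that pair, fell among 20 measured members, and none was called higher (list median -0.08). Over all genes, 0.302% were called lower. At an unadjusted p under 0.05, 5 clock genes were lower and 2 higher (9.70% and 5.16% over all genes). Of the 20, 7 had a mean above that of vehicle. The list thus did not move as a whole. Per2 stood at 7.94, 7.96, 7.82, 7.82 and 7.56 after haloperidol and at 8.31, 8.30, 8.27, 8.33 and 8.29 after vehicle. The vehicle rats lay within a narrow band above every haloperidol rat. Per2 fell by 0.48 (SE 0.09, adjusted p = 0.00539 by limma). A second Per2 probe set had a higher mean after haloperidol (0.11, adjusted p = 0.443), so the fall held for 1 of its probe sets.

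Cry1 stood at 8.35, 8.47, 8.07, 8.14 and 8.05 after haloperidol and at 8.60, 8.54, 8.69, 8.76 and 8.66 after vehicle, without overlap, and fell by 0.43 (SE 0.08, adjusted p = 0.00663). Bmal1 stood at 7.87, 7.76, 7.65, 7.90 and 7.80 and at 8.15, 8.11, 8.30, 8.13 and 8.15, also without overlap, and fell by 0.37 (SE 0.06, adjusted p = 0.00302). The calls of Per2 and Bmal1 stood without each of the 10 rats, with largest adjusted p of 0.0482 (haloperidol replicate 5 left out) and 0.0218. That of Cry1 failed in 2 removals (largest adjusted p 0.0554, haloperidol replicate 3). Bmal1 kept its call without the 3 arrays highest in pyramidal neuron markers (-0.33, adjusted p = 0.0287 by limma). Per2 (-0.40, adjusted p = 0.109) and Cry1 (-0.34, adjusted p = 0.0553) lost theirs there. On the striatum arrays alone, none of Per2, Cry1 and Bmal1 was called (adjusted p = 0.119, 0.300 and 0.240). Per1 was at 7.57 to 7.93 and 7.83 to 8.17 (-0.27, adjusted p = 0.134), and Dbp, an output gene of the loop, at 9.84 to 9.95 and 9.69 to 9.84 (0.12, adjusted p = 0.521). The part of the hour of collection in these values was not tested.

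Single members of further signaling and synaptic lists fell. Akap9, which anchors protein kinase A, was the only call among 53 genes of cAMP, PKA and CREB signaling (list median -0.05). In that list, 9 were lower and 4 higher at an unadjusted p under 0.05, against 9.70% and 5.16% of all genes. Akap9 read 8.66, 8.30, 8.27, 8.42 and 8.33 after haloperidol and 8.87, 9.08, 8.72, 8.70 and 8.85 after vehicle, without overlap. Akap9 fell by 0.44 (SE 0.09, adjusted p = 0.0200 by limma), a call that failed in 5 removals (largest adjusted p 0.110, vehicle replicate 2), and its other probe set was at -0.21 (adjusted p = 0.280). Gnas, which encodes the stimulatory G protein alpha subunit, had a higher mean (0.33, adjusted p = 0.0687 by limma). It stood at 11.61 in striatum and 12.89 in frontal cortex of vehicle rats. Its difference was 0.20 with neighbouring tissue markers as covariates (adjusted p = 0.678) and 0.26 without the 3 arrays highest in pyramidal neuron markers (adjusted p = 0.310). Without the striatum arrays high in neighbouring tissue markers it was 0.41 (adjusted p = 0.0224).

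Syt4, a synaptotagmin of secretory vesicles, was the only call among 34 genes of vesicle release. It read 9.31, 9.43, 9.41, 9.23 and 9.52 after haloperidol and 9.79, 9.66, 10.03, 9.88 and 9.64 after vehicle. The groups did not overlap, and Syt4 fell by 0.42 (SE 0.09, adjusted p = 0.0250), a call that failed in 5 removals (largest adjusted p 0.0969, vehicle replicate 3). Spry3, a Sprouty protein that restrains growth factor signaling, was the only call among 13 ERK feedback regulators (list median -0.19). In that list, 6 members were lower and 1 higher at an unadjusted p under 0.05, against 9.70% and 5.16% of all genes. Spry3 was at 7.05 to 7.29 and 7.45 to 7.63 and fell by 0.37 (SE 0.09, adjusted p = 0.0343), a call that failed in 8 removals (largest adjusted p 0.148, haloperidol replicate 3). Homer1 was the only call among 29 postsynaptic density scaffolds, and Slc25a25 among 31 mitochondrial solute carriers.

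Other named genes also fell. Zfp189, a zinc finger protein, fell by 0.62 (adjusted p = 0.0170), with 7.42 to 7.81 after haloperidol and 7.81 to 8.79 after vehicle. Jcad, a protein of endothelial junctions, fell by 0.60 (adjusted p = 0.0203), and Dock4, an activator of Rac, by 0.56 (adjusted p = 0.00831). Dnmbp, an activator of Cdc42, read 6.30, 6.22, 5.95, 5.97 and 5.98 after haloperidol and 6.69, 6.66, 6.31, 6.61 and 6.67 after vehicle. It fell by 0.50 (SE 0.08, adjusted p = 0.00131), the second smallest p of a named gene, and its call stood without each rat (largest adjusted p 0.0157, haloperidol replicate 5 left out).

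Eef2k, the kinase that slows translation through elongation factor 2, fell by 0.48 (adjusted p = 0.0346) and had means of -0.33 (adjusted p = 0.124) and -0.37 (adjusted p = 0.137) at its other probe sets. Pals2, a membrane scaffold, fell by 0.46 (adjusted p = 0.0149) and was lower at each of its other 4 probe sets, from -0.24 to -0.37, with adjusted p from 0.0844 to 0.178. Tmem132e, a membrane protein, fell by 0.38 (adjusted p = 0.00831) and kept its call without each rat (largest adjusted p 0.0465, haloperidol replicate 5 left out). The remaining named falls, from 0.27 to 0.37, were Map3k20, Scaper, Dusp11, Iqce, Amot, Plekha8, Sclt1, Gba2, Tmem120a, Pabpc4, Mmaa, Mettl16 and Lrfn5. For Eef2k, Map3k20, Lrfn5, Mettl16 and Scaper the calls failed in 7, 7, 7, 8 and 8 of the removals, and for Mmaa in 9. Zfp189, Jcad, Dock4 and Pals2 lost theirs in 5, 5, 2 and 4 removals (largest adjusted p 0.0991, 0.0884, 0.0576 and 0.0759, on leaving out vehicle replicate 2 and haloperidol replicates 3, 5 and 3).

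Among the called genes, 16 had more than 1 probe set tested and none had more than 1 called. For Iqce and Mettl16 the other probe set had a higher mean after haloperidol (0.07, adjusted p = 0.698, and 0.06, adjusted p = 0.715), and for Pabpc4 it was at -0.02 (adjusted p = 0.861). Of the 26 probe sets without a single gene name, 24 fell and 2 rose. The largest of these falls were 1375598_at (-1.13, adjusted p = 0.0148), 1396854_at (-1.03, adjusted p = 0.00302) and 1374263_at (-1.02, adjusted p = 0.0149), of which 1396854_at kept its call without each rat (largest adjusted p 0.0352, haloperidol replicate 5 left out).

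The 6 named genes that rose were Rasl10a, Vipr1, Cxxc5, Padi2, Morn1 and Gpha2. Rasl10a, a small GTPase of the Ras family, read 7.13, 7.41, 7.52, 7.21 and 8.08 after haloperidol and 6.49, 6.58, 6.22, 6.77 and 6.98 after vehicle, without overlap. It rose by 0.86 (SE 0.18, 1.82-fold, adjusted p = 0.0170 by limma). Vipr1, a receptor of vasoactive intestinal peptide and PACAP that raises cAMP, read 5.88, 5.93, 6.12, 6.02 and 6.50 after haloperidol and 5.22, 5.51, 5.29, 5.48 and 5.74 after vehicle. It also showed no overlap and rose by 0.64 (SE 0.13, adjusted p = 0.0163).

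Cxxc5, a zinc finger protein that dampens Wnt signaling, rose by 0.44 (adjusted p = 0.0260), from 8.38 to 8.50 after vehicle to 8.71 to 9.05 after haloperidol. Padi2, which converts arginine to citrulline in myelin basic protein, rose by 0.41 (adjusted p = 0.0250), with 8.05 to 8.34 and 7.74 to 7.90. Morn1 rose by 0.40 (adjusted p = 0.0452) with overlapping groups, and Gpha2, a glycoprotein hormone subunit, by 0.32 (adjusted p = 0.0452). Each of these calls failed in at least 5 of 10 removals (largest adjusted p 0.108, 0.0969, 0.122, 0.112, 0.135 and 0.155 in the order named, on leaving out haloperidol replicates 5, 5, 3 and 3 and vehicle replicates 3 and 1).

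The 8 rises differed in which rats were high. Haloperidol replicate 5, which was highest in the pyramidal neuron markers, had the highest value of the haloperidol rats for Rasl10a, Vipr1, Cxxc5 and Padi2 and the lowest for Morn1 (6.68) and 1387247_at (5.53). The highest value of 1391167_at was in haloperidol replicate 2 (7.97), and Gpha2 lay between 6.08 and 6.13 in all 5. In vehicle rats, Rasl10a stood at 9.10 in frontal cortex against 6.61 in striatum, Vipr1 at 7.61 against 5.45 and Cxxc5 at 10.11 against 8.43. Of the 8 called rises, 7 were higher in frontal cortex than in striatum of vehicle rats, as were 13 of the 55 falls and 56.7% of all probe sets tested. Without the 3 arrays highest in pyramidal neuron markers, Rasl10a was at 0.64 (adjusted p = 0.126), Vipr1 at 0.51 (adjusted p = 0.151) and Cxxc5 at 0.34 (adjusted p = 0.0463). The others were Padi2 at 0.35, Morn1 at 0.47, Gpha2 at 0.34, 1391167_at at 0.68 and 1387247_at at 0.53, of which 1387247_at passed the test (adjusted p = 0.0236). With the markers as covariates on the 15 striatum arrays, the differences of Rasl10a, Vipr1 and Cxxc5 were 0.54, 0.50 and 0.24, those of Padi2, Morn1 and Gpha2 were 0.32, 0.45 and 0.34, and those of 1387247_at and 1391167_at were 0.44 and 0.64, and none of the 63 was called. The part of the markers in these rises was not tested further. Padi2 moved beside oligodendrocyte markers, of which 14 of 15 had a higher mean after haloperidol (list median 0.23), 2 were higher at an unadjusted p under 0.05 and none was called. Over all genes, 4324 of 10256 had a higher mean after haloperidol.

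Receptors that haloperidol binds and the markers of projection neurons did not pass the test. None of 15 measured receptors for dopamine and other monoamines was called (list median -0.02, 1 higher and 0 lower at an unadjusted p under 0.05). Drd2 was at 10.54 to 10.91 after haloperidol and 10.63 to 10.99 after vehicle (-0.10, SE 0.23, adjusted p = 0.864), and Drd1 at 11.41 to 11.74 and 11.66 to 11.85 (-0.23, SE 0.26, adjusted p = 0.703). Drd3 lay under the filter on low values. Adora2a (-0.18, adjusted p = 0.679), the signaling hub Ppp1r1b (-0.10, adjusted p = 0.772) and Rgs9, which shortens D2 receptor signals (-0.17, adjusted p = 0.625), likewise had overlapping groups. Each of these 5 genes had a lower mean, and each was above 0 with neighbouring tissue markers as covariates (0.18 for Drd2, 0.05 for Drd1, 0.07 for Adora2a, 0.06 for Ppp1r1b and 0.06 for Rgs9).

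Of 27 markers shared by both kinds of projection neuron, none had a mean above the vehicle mean (list median -0.16, 4 lower at an unadjusted p under 0.05), and none was called. The mean was above that of vehicle for 4324 of all 10256 genes. The medians were -0.18 over 8 direct pathway markers and -0.09 over 6 indirect pathway markers, with no call. The lowest projection neuron marker means were those of haloperidol replicates 3 and 5, the rats highest in pyramidal neuron markers. GABA synthesis (Gad1 0.04, adjusted p = 0.924, and Gad2 -0.15, adjusted p = 0.631) held no call among 5 genes. None had an unadjusted p under 0.05 at its probe set with the highest mean. Over all their probe sets the smallest adjusted p by limma was 0.219, for Aldh5a1.

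Among 11 striatal neuropeptides none was called, 9 had a mean difference above 0 (4324 of 10256 over all genes) and 2 were higher at an unadjusted p under 0.05 (list median 0.17). Penk, the enkephalin precursor of the indirect pathway, was at 13.56 to 13.81 after haloperidol and 13.41 to 13.64 after vehicle (0.15, SE 0.18, adjusted p = 0.718). Tac1, the substance P precursor of the direct pathway, was at 11.29 to 11.65 and 11.67 to 12.13 (-0.43, SE 0.22, adjusted p = 0.341), and Pdyn at 10.78 to 11.41 and 10.96 to 11.39 (-0.10, adjusted p = 0.856). Nts, the neurotensin precursor, was at 8.70 to 10.23 and 8.33 to 8.53, with every haloperidol rat above every vehicle rat, and missed the call (0.77, SE 0.27, adjusted p = 0.177). Its difference was 1.10 with neighbouring tissue markers as covariates (adjusted p = 0.0815), and it stood at 8.43 in striatum and 4.05 in frontal cortex of vehicle rats. Cck had the largest mean difference of the list (1.31, SE 0.41, adjusted p = 0.138), stood at 8.55 and 13.08 in those regions, and was at 0.34 with the covariates (adjusted p = 0.760).

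The remaining lists held no call. Over all genes, 9.70% were lower and 5.16% higher at an unadjusted p under 0.05. Of 36 heat shock and unfolded protein genes, 12 were lower and none higher at that p (list median -0.08). They were led by Hsph1, a chaperone of the HSP110 family, at 11.70 to 11.92 and 11.98 to 12.09 (-0.22, adjusted p = 0.130). Of 29 cholesterol synthesis and sterol response genes, 4 were higher and none lower at that p (list median 0.04), led by Insig1, which holds back sterol synthesis (0.23, adjusted p = 0.130). Of 32 inflammation genes, 5 were higher and 3 lower (list median 0.06), and Cebpb, a transcription factor of the acute phase, had the smallest p (-0.46, adjusted p = 0.0838). Among 17 ionotropic glutamate receptor genes, Cacng3, an AMPA receptor auxiliary subunit, was at 8.70 to 8.93 and 9.04 to 9.37 without overlap (-0.40, adjusted p = 0.0563). Gfap, the filament protein of astrocytes, was at 10.76 to 11.67 and 10.65 to 10.82 (0.53, adjusted p = 0.106), while the astrocyte marker median was 0.01. Lists of potassium channels, sodium and calcium channels, GABA receptors, insulin signaling and neurotrophins also held no call by limma, with 2, 4, 1, 4 and 0 members lower and 2, 1, 0, 3 and 1 higher at an unadjusted p under 0.05. The same counts were 0, 1, 4, 1, 3, 0 and 0 lower and 1, 0, 1, 0, 0, 1 and 1 higher for dopamine synthesis and transport, interneuron markers, regulators of G protein signaling, metabotropic glutamate receptors, glucocorticoid-responsive genes, fatty acid synthesis, and opioid, cannabinoid, adenosine and muscarinic receptors. Among cell type lists, 6 pyramidal neuron markers, 2 choroid plexus and meningeal markers and 1 astrocyte marker were higher at that p, 2 vascular markers, 1 septal and thalamic marker and 1 ribosomal protein gene were lower, and microglia, olfactory bulb and red blood cell markers had none.

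**Figure D4:**
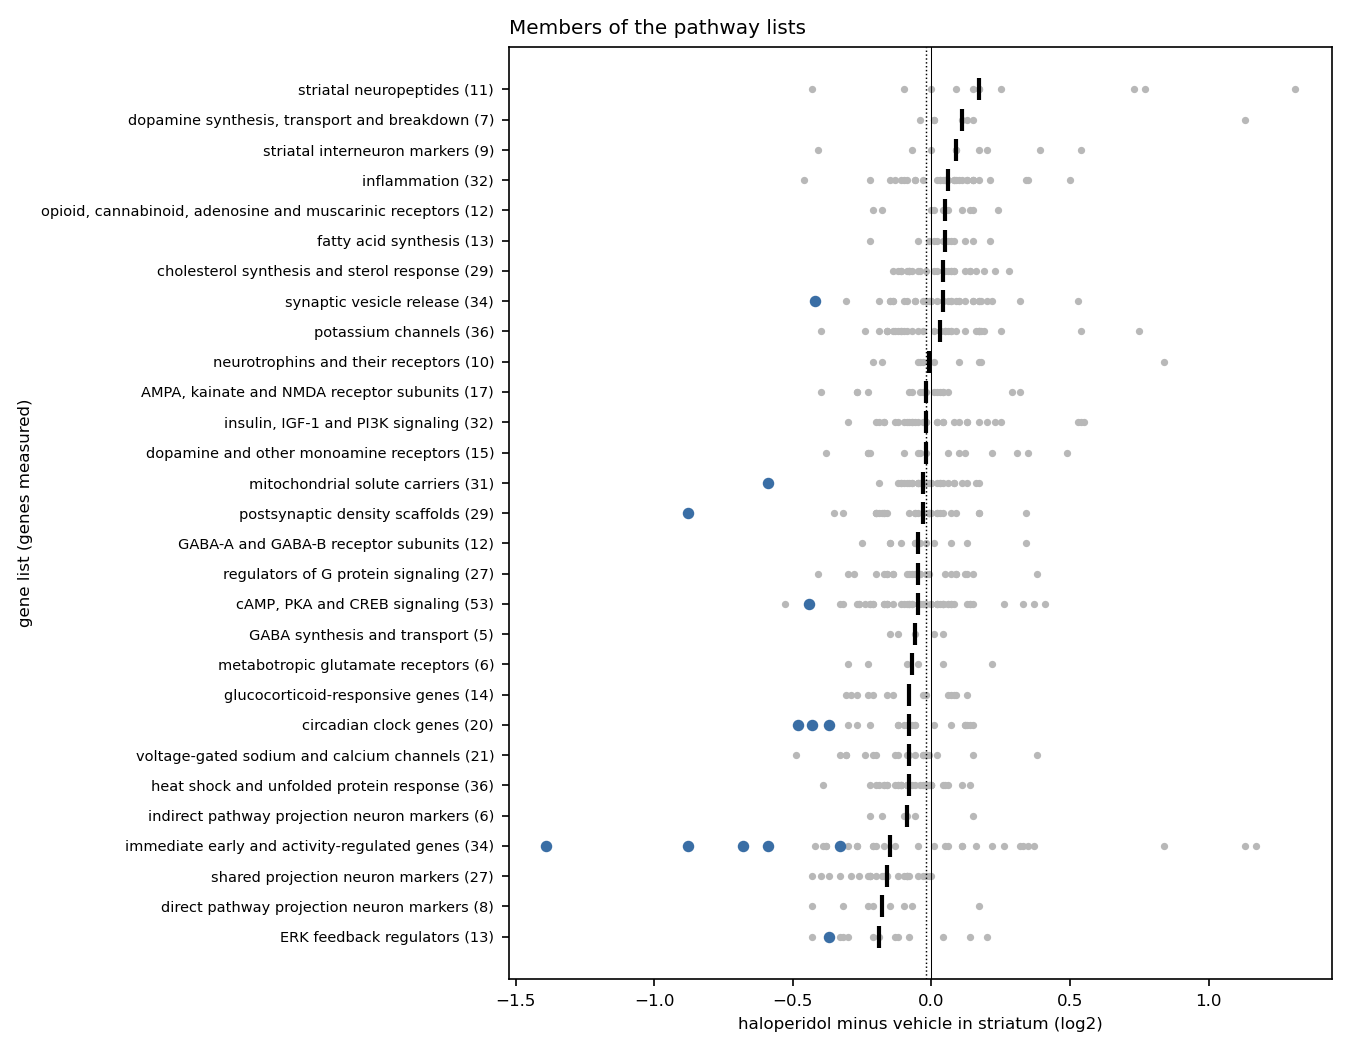
Change in striatum (haloperidol minus vehicle, log2) of the members of 29 gene lists, in grey at the probe set of each gene with the highest mean over all arrays, with the list median as a bar and the median of all genes (-0.02) as a dotted line. Blue points are called probe sets, all below 0, with 5 in the activity-regulated list and 3 in the clock list.

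The effect of haloperidol in striatum was set against that in frontal cortex of the same rats. The difference between the effects was called for 5 of 18625 probe sets (0.0268%), of which 3 carry a gene. Slc25a25 fell by 0.59 in striatum and was at -0.11 (SE 0.08, adjusted p = 0.541) in frontal cortex, a difference of -0.49 (SE 0.10, adjusted p = 0.0400). Vipr1 rose by 0.64 in striatum and was at -0.25 (SE 0.13, adjusted p = 0.400) in frontal cortex, a difference of 0.89 (SE 0.16, adjusted p = 0.0284). Ranbp9, a scaffold that binds the GTPase Ran, was at 0.18 (adjusted p = 0.0895) and -0.13 (adjusted p = 0.222), a difference of 0.31 (adjusted p = 0.0395). The others were 1387247_at (0.70, adjusted p = 0.00335) and 1390763_at (0.41, adjusted p = 0.0395). The count was 1 without vehicle replicate 1 or 4 or haloperidol replicate 2, 3, 4 or 5, it was 2 without vehicle replicate 5 or risperidone replicate 5, and it was 8 without risperidone replicate 3.

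Some of these genes also fell in frontal cortex. Homer1 fell by 0.93 there (SE 0.17, adjusted p = 0.00563), Per2 by 0.48 (SE 0.09, adjusted p = 0.00563), Nr4a1 by 1.14 (SE 0.16, adjusted p = 9.23e-05) and Tiparp by 0.34 (SE 0.08, adjusted p = 0.0488). Their differences between regions were 0.04, 0.01, 0.46 and 0.01 (adjusted p = 0.994, 0.999, 0.597 and 0.997). The regions came from the same rats, so they are no independent replicate of the treatment. The difference between the effects in striatum and hippocampus was called for none of 18625 probe sets (0%) by limma, with 1369 at an unadjusted p under 0.05. Homer1 was at -0.84 (SE 0.17) in hippocampus and Egr2 at -0.63 (SE 0.28), while Bmal1 (-0.03, SE 0.06), Cry1 (-0.06, SE 0.08) and Syt4 (0.01, SE 0.09) lay near 0.

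**Figure D5:**
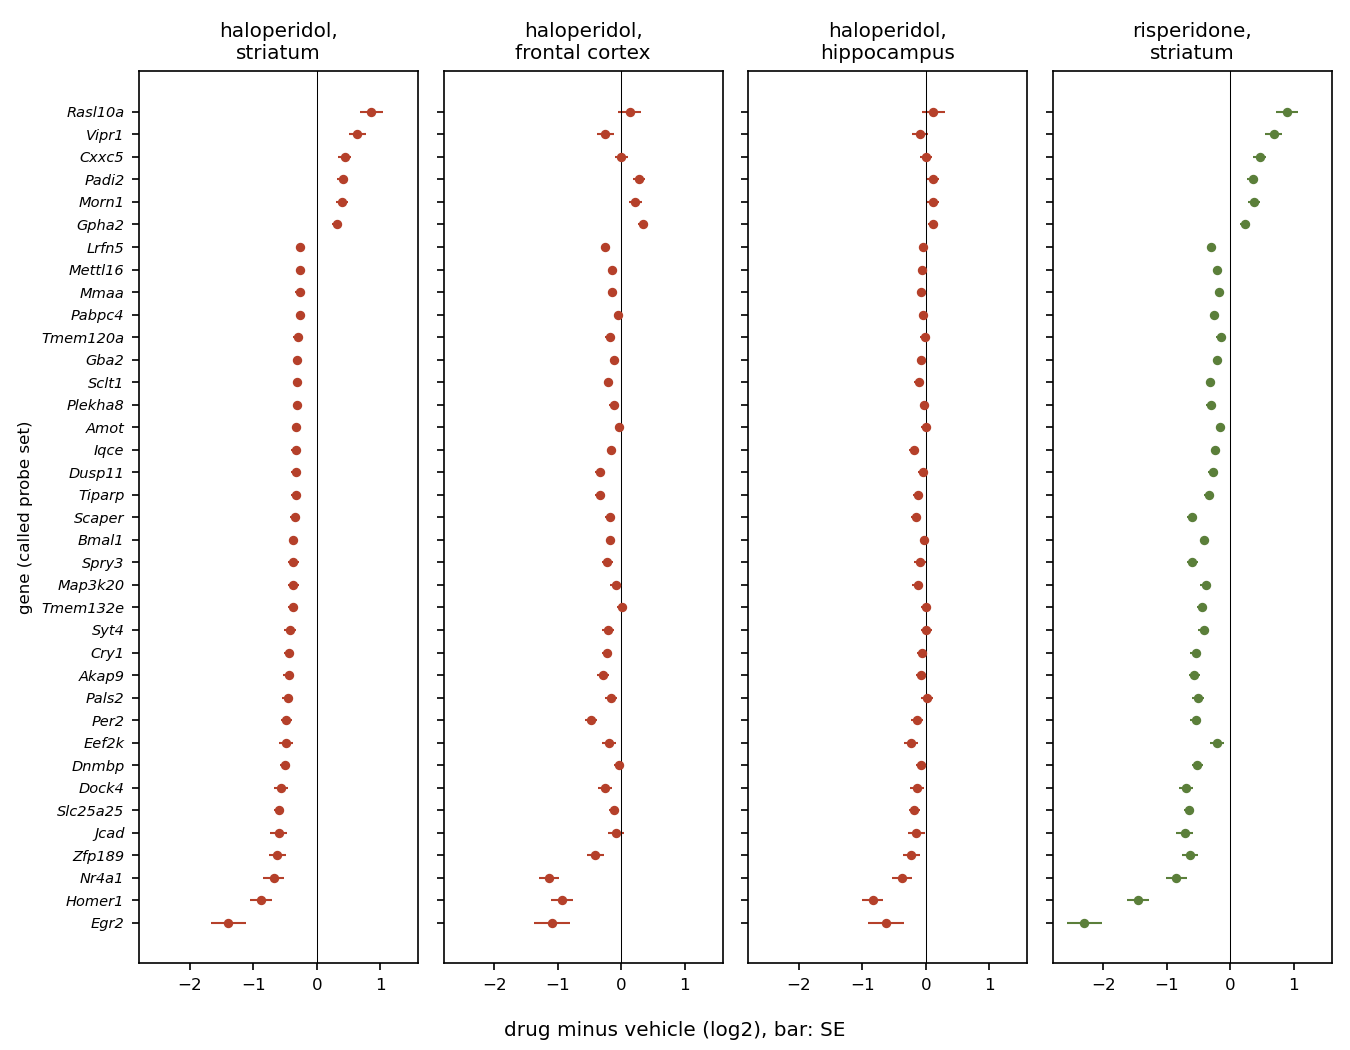
Difference from vehicle (log2, bars SE) of the 37 called genes for haloperidol in striatum, frontal cortex and hippocampus and for risperidone in striatum, at the called probe set. Homer1 was lower in every panel, while Bmal1 lay near 0 in hippocampus (-0.03, SE 0.06), and the genes were chosen by the leftmost panel.

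Haloperidol and risperidone were compared directly in striatum at their single doses, which are not matched. Of 18625 probe sets, 3 (0.0161%) differed, all higher after haloperidol. Wdr33, a subunit of the polyadenylation complex, had a mean of 7.18 after haloperidol, 6.49 after risperidone and 7.51 after vehicle, a difference between drugs of 0.70 (SE 0.12, adjusted p = 0.0109). Atrx, a chromatin remodeler, had means of 7.95, 7.34 and 7.95, a difference of 0.62 (SE 0.11, adjusted p = 0.0109), and 1394362_at of 7.22, 6.53 and 7.22, a difference of 0.69 (SE 0.11, adjusted p = 0.00211). The count was 1 without haloperidol replicate 1 or 3, 6 without vehicle replicate 1 or risperidone replicate 4, 13 without risperidone replicate 3 and 21 without haloperidol replicate 4. The drugs share the vehicle rats, and each difference from vehicle is given side by side. Against vehicle, 679 probe sets (3.65%) were called after risperidone. All 63 probe sets called after haloperidol had the same sign after risperidone, and 48 of them were also called, against the same vehicle rats. Egr2 was at -1.39 after haloperidol and -2.30 after risperidone, Homer1 at -0.88 and -1.46, Slc25a25 at -0.59 and -0.65, Per2 at -0.48 and -0.55, Bmal1 at -0.37 and -0.41, Rasl10a at 0.86 and 0.89, and Eef2k at -0.48 and -0.21. For Egr2 the difference between the drugs was 0.91 (SE 0.28, adjusted p = 0.640), and for Eef2k it was -0.27 (SE 0.11). Neither was called.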

How the data were processed

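RNA of striatum, frontal cortex and hippocampus of 15 rats was measured on 45 Affymetrix rat arrays. The authors deposited linear RMA intensities made in R 2.7.2, per the submitters' processing notes, and their fold changes were not used. Intensities were put on the log2 scale, control probe sets were dropped, and 18625 of 31042 probe sets at the 40th percentile of mean level or higher entered the test. Among them, 14129 carry 1 gene in the platform annotation, 306 several and 4190 none. One fit in limma 3.58.1 (R 4.3.3, statmod 1.5.0) gave a mean for each of 9 groups, taking arrays of a rat as correlated (random block, consensus 0.226, 39.9 residual degrees of freedom), and Benjamini-Hochberg adjustment within each comparison. The fit was also run on simulated data with equal spread over arrays and no neighbouring tissue. That run cannot show how the fit does with such tissue or with outlying rats. Replicate numbers did not pair the rats (correlations of deviations from -0.19 to 0.55, 1 of 5 over 0.1).

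Genes were named by a rule: the 15 largest called changes in each direction, called members of 29 pathway and 11 cell type lists, the 2 members of each list with the smallest p, and fixed genes of striatal signaling. The comparison, the lists and the rule were chosen with earlier results of these data known. Other called genes, 1387247_at and other unnamed probe sets, genes of the region and drug comparisons, and Gnas were named after their values were seen. Alternatives were the filter, scaling, block, arrays fitted, weights, a mixed model, neighbouring tissue markers and leaving out each rat. The covariates were the means of the pyramidal neuron list and of the choroid plexus, ependymal and meningeal list. An array was high in neighbouring tissue markers where either mean, or that of the olfactory bulb and neuroblast list, exceeded the striatum median by over 0.5. Leaving out the 3 arrays highest in pyramidal neuron markers was chosen after seeing the data.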

Additional observations from a re-analysis of the deposited data

Results flagged for a closer look

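Values of a rat that stood apart from the other 4 of its group in striatum, by the gap to the nearest rat over the range of the group, were found in 16 of 300 groups looked at, and chance gives about 1 in 20. Among called probe sets these were Homer1 in haloperidol replicate 2 (7.46, nearest 6.99), Jcad in haloperidol replicate 1 (7.87, nearest 7.62), Pals2 in haloperidol replicate 2 (8.30, nearest 7.98), 1379897_at in haloperidol replicate 4 (8.69) and 1373920_at in haloperidol replicate 2 (7.02). In vehicle rats they were 1380392_at (7.43) and Mmaa (7.21) in replicate 5, and Dnmbp (6.31), Bmal1 (8.30) and Pabpc4 (6.99) in replicate 3. Among genes that were not called they were Arc (8.63) and Grm5 (9.56) in vehicle replicate 3, Chrm4 (7.75), Ppp1r1b (12.69) and Syndig1l (10.38) in vehicle replicate 1, and Rarb (11.03) in vehicle replicate 2.

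The effect of haloperidol differed between striatum and frontal cortex, by the test of the difference in limma, for Slc25a25 (-0.49, adjusted p = 0.0400), Ranbp9 (0.31, adjusted p = 0.0395), Vipr1 (0.89, adjusted p = 0.0284), 1387247_at (0.70, adjusted p = 0.00335) and 1390763_at (0.41, adjusted p = 0.0395). Haloperidol and risperidone differed in striatum for Wdr33 (0.70, adjusted p = 0.0109), Atrx (0.62, adjusted p = 0.0109) and 1394362_at (0.69, adjusted p = 0.00211).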

How the results depend on the processing

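The 63 calls of haloperidol against vehicle in striatum became 34 with probe sets at or above the 60th percentile, 1 on the 15 striatum arrays and 20 on the 10 arrays compared. They became 333 with array weights, 7 with a mixed model per probe set and Tukey-Kramer adjustment and 0 with neighbouring tissue markers as covariates. There were 159 without 7 striatum arrays high in those or in olfactory bulb and neuroblast markers, 17 without the 3 arrays highest in pyramidal neuron markers and 21 at 1.5-fold. These were not always the same probe sets. Of the 159 calls (93 falls and 66 rises), 30 were among the 63, as were 11 of the 20 and 15 of the 17. Leaving out single rats gave 12 to 168. Without a filter there were 83, with the replicate number as a block 73, and without the rat as a block 64. The 5 calls of striatum against frontal cortex became 1 without a filter, 3 at the 60th percentile, 1 without the rat as a block, 2 with the replicate block, 3 with quantile normalization within regions, 10 with array weights, 33 without the high arrays, 2 without the 3 arrays and 2 at 1.5-fold, and 1 to 8 without single rats. Of the 33 calls without the high arrays, 1 was among the 5, and of the 10 with array weights, 4 were. The 0 calls against hippocampus became 85 with array weights and 79 without the high arrays, and stayed 0 without any single rat. The 3 calls of haloperidol against risperidone became 1 at the 60th percentile, 0 on the striatum arrays alone, 7 with array weights, 0 with the covariates, 40 without the high arrays and 1 without the 3 arrays, and 1 to 21 without single rats. Of the 40 calls between the drugs without the high arrays, 1 was among the 3. The replicate block gave 0 calls against hippocampus and 4 between the drugs. The cause of these shifts was not tested. Comparisons with another region could not be fitted on striatum arrays alone. Signs turned with the covariates for Adora2a (0.07), Drd1 (0.05), Drd2 (0.18), Gabbr2 (-0.05), Gad2 (0.02), Gucy1a1 (0.00), Kcnc2 (-0.13), Pdyn (0.09), Ppp1r1b (0.06) and Rgs9 (0.06), without the high arrays for Aqp4 (-0.03) and C3 (-0.03), without the 3 arrays for Pdyn (0.01) and Slc4a1 (-0.01), and without vehicle replicate 2 for Slc4a1 (-0.01, with 0.08 as the highest value without a single rat). None of these genes was called. Signal over background limits the dim probe sets.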
